A study of Mus musculus with 2 samples.

Results

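Lipid-associated macrophages are macrophages that take up, store and export lipid, and they are recognised by a shared set of transcripts. Here, 10 of these genes were followed through sorted mouse skin cells: Spp1, Gpnmb, Trem2, Fabp5, Fabp4, Lpl, Apoe, Cd9, Lgals3 and Plin2. They were found by symbol among the 32285 genes of the deposited count matrix, and all 10 were present. The list was drawn up when earlier results of these cells were known, among them that Spp1 and Gpnmb led a cluster of monocyte-like cells. Levels across cell groups are therefore given as a description, without a test.

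The cells came from the dorsal skin of wild-type (WT) male mice of 9 or 108 weeks. For each age, skin of 2 mice was pooled and digested with collagenase, Dispase and DNase, and 1 droplet library was made from cells sorted for the macrophage surface protein F4/80 and for a high level of MHC class II. No treatment was given. The deposited matrix holds both libraries, which differ in the suffix of their cell barcodes. Which suffix belongs to which age is not stated in the labels or the files, and the libraries are therefore called suffix 1 and suffix 2 and pooled unless named. With 1 library per age and pooled animals, age and library cannot be told apart, and no p-value was computed because cells of 1 library are not replicates.

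In lipid-loaded tissue such as obese fat or the atherosclerotic plaque, monocyte-derived macrophages take on a programme in which the receptor Trem2, signalling through its adaptor Tyrobp, senses lipids and lipoproteins, and in which lipid handling and lysosomal genes are expressed together. Spp1 encodes osteopontin, a secreted phosphoprotein that binds integrins and Cd44, and Gpnmb a transmembrane glycoprotein of lysosomes and melanosomes. Lpl encodes lipoprotein lipase, which releases fatty acids from triglyceride-rich lipoproteins, Fabp4 and Fabp5 encode cytosolic fatty acid binding proteins, Plin2 encodes a coat protein of lipid droplets, and Apoe the apolipoprotein that carries cholesterol out of the cell. Cd9 encodes a tetraspanin of the cell surface and Lgals3 galectin-3, a lectin secreted by macrophages. Several of these genes also have long-known uses outside macrophages, such as Fabp4 in capillary endothelium and adipocytes.

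Gene positions are those of GENCODE vM21 (GRCm38), with identifiers that matched those of the files. Spp1 spans chr5:104435118-104441050 on the plus strand, Gpnmb chr6:49036546-49070929 (plus), Trem2 chr17:48346401-48354147 (plus), Lpl chr8:68880491-68907448 (plus) and Lgals3 chr14:47367751-47386160 (plus). Fabp5 (chr3:10012548-10016607, plus) and Fabp4 (chr3:10204088-10208576, minus) both lie on chromosome 3. Apoe lies at chr7:19696109-19699188, Cd9 at chr6:125460266-125494791 and Plin2 at chr4:86648386-86670060, all on the minus strand. No transcript of 1 member shared a stretch of 31 bases with a transcript of another, Fabp4 and Fabp5 included. Spp1 overlaps the gene model Gm42793 on its own strand, where reads could be split, and Cd9 overlaps Gm28809 and Gm26728 on the opposite strand.

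Promoter sequences were taken for the 3 genes whose joint detection is described below, Spp1, Gpnmb and Trem2. Each is the 250 bases before the first RefSeq transcription start (GRCm38.p6), written 5′ to 3′ on the plus strand, which is the coding strand of all 3 genes, and they lie at chr5:104434861-104435110, chr6:49036268-49036517 and chr17:48346151-48346400. Capitals mark the letters searched on both strands for the macrophage factor PU.1 (GAGGAAG or its reverse complement CTTCCTC), for AP-1 (TGANTCA) and for the E-box bound by MiT/TFE factors (CACGTG).
Spp1: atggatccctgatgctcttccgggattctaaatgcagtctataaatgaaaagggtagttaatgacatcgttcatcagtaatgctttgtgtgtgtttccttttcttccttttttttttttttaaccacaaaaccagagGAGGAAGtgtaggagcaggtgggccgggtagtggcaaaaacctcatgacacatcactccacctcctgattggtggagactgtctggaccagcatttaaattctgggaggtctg
Gpnmb: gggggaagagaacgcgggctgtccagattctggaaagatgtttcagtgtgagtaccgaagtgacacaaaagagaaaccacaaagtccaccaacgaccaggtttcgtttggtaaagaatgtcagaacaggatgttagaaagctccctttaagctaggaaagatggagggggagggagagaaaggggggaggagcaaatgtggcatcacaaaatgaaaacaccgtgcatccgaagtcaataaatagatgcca
Trem2: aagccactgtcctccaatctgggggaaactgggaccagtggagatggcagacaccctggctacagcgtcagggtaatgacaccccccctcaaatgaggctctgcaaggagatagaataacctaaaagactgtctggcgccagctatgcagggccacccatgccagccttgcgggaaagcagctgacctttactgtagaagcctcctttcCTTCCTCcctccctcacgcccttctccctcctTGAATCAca
The Spp1 sequence holds the PU.1 letters 113 bases before the start. The Trem2 sequence holds them at 41 bases, on the reverse strand. It matches TGANTCA, the pattern searched for AP-1, at 9 bases, with an A at the open position N. Gpnmb holds none of these letters. Among 7 members with a RefSeq entry, 2 hold the PU.1 letters, as do 10.7% of 32536 promoters of this length, 1 holds the AP-1 letters, as do 6.73%, and none the E-box, which 6.04% hold. Fabp5, Fabp4 and Lpl had no entry. These matches describe letters in a window and not binding.

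The matrix holds 5257 barcodes and 56204601 UMIs, or unique molecular identifiers, each of which stands for 1 captured RNA molecule. The filter asked for 500 or more genes, 1000 or more UMIs and no more than 10% mitochondrial UMIs in a cell, and it left 3797 cells, 2396 of suffix 1 and 1401 of suffix 2, with medians of 10761 and 11196 UMIs. A single cell barcode occurred in both libraries. Clustering without the 10 genes gave 24 clusters, which were grouped by fixed markers. Levels are summed UMIs of a gene per 1000000 UMIs of the group (CPM) with exact 95% Poisson intervals, which cover counting error and understate the spread between cells. To compare how many cells had a UMI of a gene at equal depth, 2000 UMIs were drawn at random from each cell (thinning), and shallower cells were left out.

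The macrophage class held 1382 cells, 1142 of suffix 1 and 240 of suffix 2. It consisted of 541 resident macrophage-like cells, 340 monocyte-like cells led by Ly6c2 and Plac8, 271 cells called Dcstamp Cd226 Fn1 macrophages after their markers, 88 inflammatory macrophage-like cells led by Ccl3 and Ccl4, and 142 cells of an unnamed cluster with both resident and monocyte markers. In these 5 groups 8 general macrophage markers summed to between 4245 and 11134 CPM, compared with 84.1 CPM in fibroblast-like cells. The unnamed cluster was the deepest, with a median of 20252 UMIs against 10161 over the class, and 17.6% of its cells were among the 5% with the highest doublet scores, compared with 0.59% of the monocyte-like cells. With 431 dermal dendritic-like cells and 125 cells of an unnamed cluster between Dcstamp and inflammatory macrophages, the phagocytes came to 1938 cells. Although the sort was for macrophages, 1711 cells were non-phagocytes, mostly fibroblast-like (827) and endothelial-like (259), and 148 cells lay in 2 clusters of mixed markers.

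Most of the 10 genes stood higher in phagocytes than in non-phagocytes, yet 3 did not. Trem2, Plin2, Lpl, Spp1, Lgals3 and Apoe were at least 2-fold higher in phagocytes, while Fabp4, Cd9 and Gpnmb were at least 2-fold lower, and Fabp5 lay between these bounds. Thus 6 of 10 members were higher, where 13.3% of 15107 genes with at least 20 UMIs were, and 3 of 10 were lower, where 37.7% were, and all 10 members passed this minimum. The median log2 ratio of the members was 1.39, and that of all genes tested was -0.51.

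Trem2 followed the phagocytes most closely. It stood at 47.9 CPM (45.2 to 50.7, 1169 UMIs) in phagocytes and at 1.53 CPM (1.08 to 2.09, 38 UMIs) in non-phagocytes, a log2 ratio of 4.97 (4.51 to 5.48). Plin2 stood at 571 and 74.4 CPM (log2 ratio 2.94, 2.87 to 3.01). The ratios of Lpl (707 and 209 CPM, log2 1.76), Lgals3 (2703 and 1008 CPM, 1.42) and Apoe (3750 and 1455 CPM, 1.37) were smaller, since these genes were also read in many non-phagocytes.

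Spp1 was higher in phagocytes, at 130 CPM (126 to 135) against 38.5 CPM (36.1 to 41.0), but this difference came from suffix 1. In suffix 1 the levels were 162 and 45.3 CPM, and in suffix 2 they were 31.3 and 30.3 CPM. Without the phagocyte with the most Spp1, its phagocyte level was 73.9 CPM.

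The 3 genes lower in phagocytes were each high in a stromal or vascular type. Fabp4 stood at 83.1 CPM in phagocytes and 3657 CPM in non-phagocytes (log2 ratio -5.46, -5.52 to -5.40), Cd9 at 189 and 968 CPM (-2.36, -2.40 to -2.31), and Gpnmb at 39.0 and 144 CPM (-1.89, -1.99 to -1.78). For Fabp5 the levels were 326 and 265 CPM (0.30, 0.25 to 0.35), but 1 keratinocyte-like cell held 29.9% of its non-phagocyte UMIs, and the non-phagocyte level without that cell was 187 CPM.

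**Figure D1:**
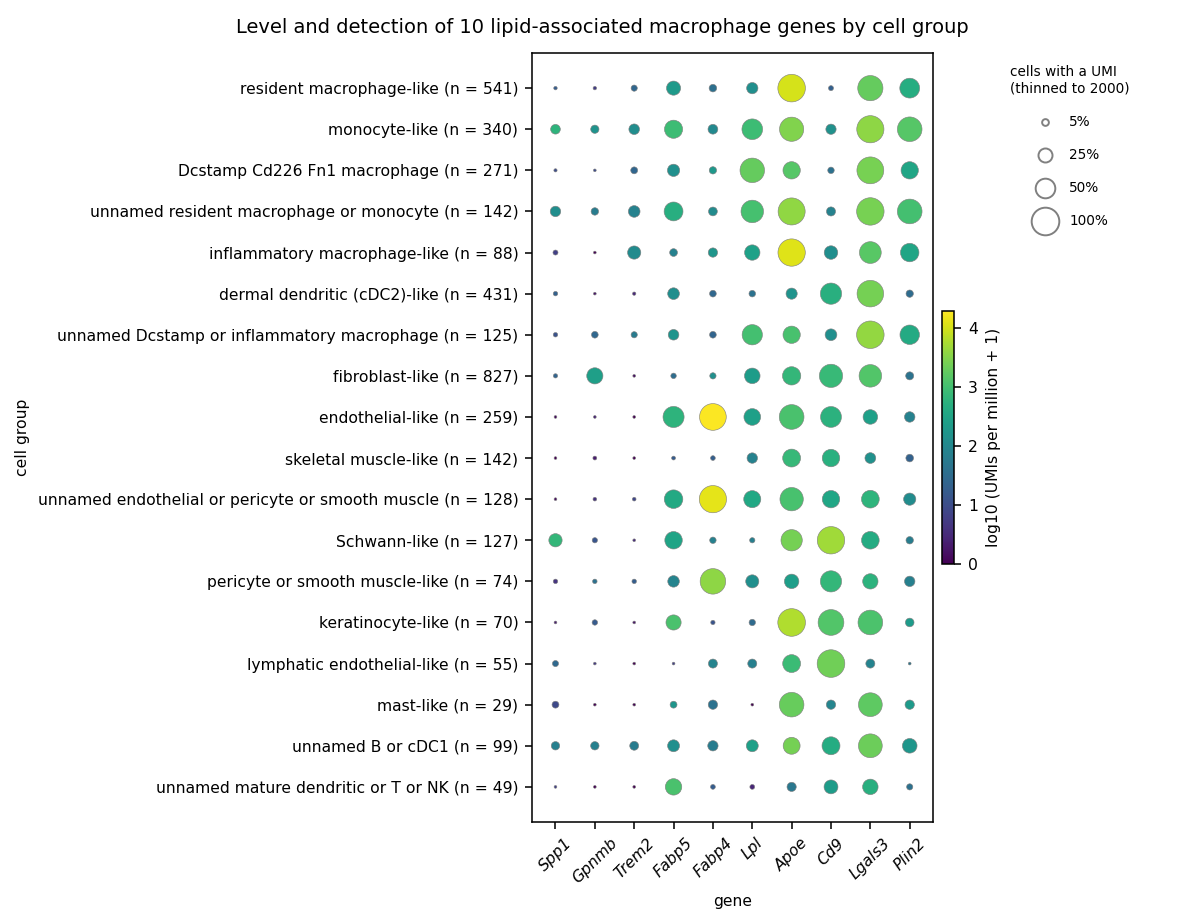
Levels of the 10 genes (columns) in 18 cell groups (rows, with their number of cells). Colour gives log10 of the level in CPM plus 1, and dot area the percentage of cells with a UMI after thinning to 2000 UMIs per cell. Apoe and Lgals3 were read in most groups, whereas Fabp4 was highest in endothelial-like cells (18682 CPM), Cd9 in Schwann-like cells (4857 CPM) and Gpnmb in fibroblast-like cells (258 CPM).

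Over both libraries, osteopontin transcripts were found chiefly in 2 kinds of cells, which are not related by lineage. Spp1 stood at 695 CPM (641 to 752, 617 UMIs) in Schwann-like cells and at 604 CPM (581 to 628, 2500 UMIs) in monocyte-like cells, intervals that cover counting error and do not overlap. The Schwann-like level was 853 CPM in suffix 1 and 534 CPM in suffix 2. The monocyte-like level was 744 CPM in suffix 1, but only 40.1 CPM in the 47 cells of suffix 2, and it was 274 CPM over both libraries without the cell with the most Spp1. A fibroblast-like cluster led by Igfbp3 and Prlr had Spp1 at 82.4 CPM, with 63.1 CPM in suffix 1 and 240 CPM in suffix 2. Other fibroblast-like clusters stood at 5.16 CPM or less. After thinning, 22.3% (14.996 to 31.2) of Schwann-like and 11.4% (8.14 to 15.3) of monocyte-like cells had a Spp1 UMI, so that in both groups most cells had none at this depth.

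The unnamed resident or monocyte cluster had Spp1 at 129 CPM (117 to 142), with 126 and 139 CPM in the libraries, and a UMI in 13.5% of thinned cells. In the other macrophage groups Spp1 was low. Resident macrophage-like cells stood at 16.9 CPM, of which 1 cell held 84.6% of the UMIs, so that the level without it was 2.62 CPM. Dcstamp Cd226 Fn1 macrophages stood at 9.11 CPM and inflammatory macrophage-like cells at 5.56 CPM (1.51 to 14.2). As a measure of background, endothelial-like cells held 1 UMI of Spp1 (0.36 CPM, 0.0091 to 2.00), and none of 237 thinned endothelial-like cells had one, which allows up to 1.27%. The 6 Schwann markers summed to 52.0 CPM in monocyte-like cells, with Sox10 and Cdh19 at 0, and to 71.5 CPM in the unnamed resident or monocyte cluster, the highest of the 5 macrophage groups (lowest 22.2 CPM), compared with 21787 CPM in Schwann-like cells. The part of Schwann RNA in the Spp1 of these groups was not tested.

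Gpnmb was highest in fibroblast-like cells, at 258 CPM (249 to 267, 3498 UMIs), where 33.6% (30.3 to 37.0) of thinned cells had a UMI. It varied between the 4 fibroblast-like clusters, from 35.0 CPM (29.0 to 41.8) in a cluster led by Igfbp3 and Prlr to 613 CPM (585 to 642) in one of 185 cells led by Dcn and Col1a2. The latter had 172 of its cells in suffix 2, and the fibroblast-like level was 156 CPM in suffix 1 and 375 CPM in suffix 2.

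Within the phagocytes, Gpnmb was highest in monocyte-like cells, at 158 CPM (146 to 171), with 188 CPM in suffix 1 and 40.1 CPM in suffix 2. The unnamed resident or monocyte cluster followed with 60.0 CPM (51.8 to 69.1). Levels in Dcstamp Cd226 Fn1 macrophages (9.11 CPM, of which 1 cell gave 91.4%) and resident macrophage-like cells (4.78 CPM, 2.995 to 7.24) were near those of lymphatic endothelial-like cells (4.59 CPM, 1.25 to 11.8). Dermal dendritic-like cells held 5 UMIs (0.80 CPM), and inflammatory macrophage-like cells held none, which allows up to 4.17 CPM. In thinned data, 8.00% (5.29 to 11.5) of monocyte-like cells had a Gpnmb UMI, against none of 237 endothelial-like cells, which allows up to 1.27%. The 6 fibroblast markers summed to 241 CPM in monocyte-like and to 620 CPM in resident macrophage-like cells, compared with 81578 CPM in fibroblast-like cells, and the part of fibroblast RNA in the Gpnmb of these groups was not tested.

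Trem2 was less confined to the monocyte-like cells than Spp1 or Gpnmb. Monocyte-like cells stood at 123 CPM (113 to 134) and inflammatory macrophage-like cells at 113 CPM (89.4 to 140), intervals that overlap, and the unnamed resident or monocyte cluster at 79.6 CPM (70.1 to 90.0). These 3 groups were higher in suffix 1 (138, 139 and 86.2 CPM) than in suffix 2 (65.6, 48.0 and 58.6 CPM). Resident macrophage-like cells (25.4 CPM) and Dcstamp Cd226 Fn1 macrophages (24.7 CPM) were lower. These 2 groups stood at 27.1 and 19.7 CPM in suffix 1, where their intervals overlap, and at 19.5 and 47.6 CPM in suffix 2, where they do not. The 47.6 CPM rested largely on 1 of 42 cells, which held 21 Trem2 UMIs, and the level without it was not computed. The unnamed Dcstamp or inflammatory cluster stood at 43.4 CPM in suffix 1 and at 83.3 CPM in suffix 2, the highest value of the phagocyte groups there. Dermal dendritic-like cells, which are phagocytes too, had 2.08 CPM (1.11 to 3.56). No UMI of Trem2 was found in endothelial-like cells, which allows up to 1.08 CPM, nor in skeletal muscle-like, lymphatic endothelial-like or mast-like cells, and fibroblast-like cells had 0.44 CPM (0.16 to 0.96). After thinning, 22.1% of inflammatory macrophage-like and 13.8% of monocyte-like cells had a Trem2 UMI, against none of 783 fibroblast-like cells (up to 0.383%).

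Of the lipid handling genes, lipoprotein lipase was led by the Dcstamp Cd226 Fn1 macrophages. Lpl stood there at 1907 CPM (1864 to 1952), with almost the same level in suffix 1 (1909 CPM) and suffix 2 (1901 CPM), and 78.4% (73.0 to 83.2) of thinned cells had a UMI. The unnamed resident or monocyte cluster (1082 CPM), the unnamed Dcstamp or inflammatory cluster (1023 CPM) and the monocyte-like cells (890 CPM, 861 to 919) followed. The monocyte-like level differed between the libraries, at 1014 CPM in suffix 1 and 390 CPM in suffix 2. Resident macrophage-like cells were low, at 134 CPM (124 to 146), below endothelial-like (270 CPM) and fibroblast-like cells (231 CPM), and dermal dendritic-like cells stood at 40.4 CPM.

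Apoe was highest in the inflammatory and the resident macrophage-like cells, the groups lowest for Lpl within the macrophage class. It stood at 12241 CPM (11987 to 12500) in inflammatory macrophage-like and 10690 CPM (10596 to 10785) in resident macrophage-like cells, where 97.7% and 99.4% of thinned cells had a UMI. The libraries gave 11648 and 13698 CPM in the former and 10648 and 10841 CPM in the latter. The unnamed resident or monocyte cluster (3877 CPM), the monocyte-like cells (3015 CPM) and the Dcstamp Cd226 Fn1 macrophages (1489 CPM) were lower, and the dermal dendritic-like cells had 162 CPM (152 to 172). Keratinocyte-like cells stood between the macrophage groups, at 6106 CPM, and every thinned cell of them had a UMI. Endothelial-like cells held 1183 CPM and fibroblast-like cells 713 CPM, and the part of free RNA in these levels was not tested.

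Plin2 was highest in the monocyte-like cells, at 1453 CPM (1416 to 1490), with 1607 CPM in suffix 1 and 832 CPM in suffix 2. The unnamed resident or monocyte cluster stood at 1041 CPM (1006 to 1077), and the remaining macrophage groups at 469 CPM (resident), 342 CPM (Dcstamp Cd226 Fn1) and 340 CPM (inflammatory), of which the last pair did not differ beyond counting error. After thinning, 79.1% of monocyte-like cells had a Plin2 UMI. Dermal dendritic-like cells stood at 31.3 CPM and fibroblast-like cells at 41.7 CPM, with a UMI in 6.10% and 7.54% of thinned cells.

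The fatty acid binding protein genes differed from each other. Fabp4 stood at 18682 CPM (18522 to 18843) in endothelial-like cells, with 18397 and 18928 CPM in the libraries and a UMI in 93.2% of thinned cells. The unnamed endothelial or pericyte cluster (13384 CPM) and the pericyte or smooth muscle-like cells (3733 CPM) followed, whereas the other groups lay between 11.9 CPM (keratinocyte-like) and 194 CPM (Dcstamp Cd226 Fn1 macrophages). The last value rested on 1 cell of suffix 1, which held 416 of the 746 Fabp4 UMIs of its group together with 598 UMIs of 5 adipocyte markers, of which Lep was at 0. Without that cell the group stood at 86.6 CPM. Summed over 6 markers, endothelial levels in the macrophage groups ran from 16.5 to 47.6 CPM, compared with 3717 CPM in endothelial-like cells. In the 10 macrophage cells with the most Fabp4, these markers stood at 251 CPM, against 32.7 CPM over the class. Pericyte or smooth muscle markers stood at 195 against 13.9 CPM, and adipocyte markers at 2086 against 41.8 CPM. Whether vascular or free Fabp4 RNA added to the 111 CPM of the macrophage class was not tested.

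Fabp5 was read in more kinds of cells. The unnamed mature dendritic or T cell cluster stood at 1178 CPM (1087 to 1274), the monocyte-like cells at 901 CPM (872 to 930) and the endothelial-like cells at 597 CPM (569 to 626). The monocyte-like level was 924 CPM in suffix 1 and 808 CPM in suffix 2, so that Fabp5 differed less between the libraries there than Spp1 or Gpnmb. The keratinocyte-like level of 1166 CPM was 451 CPM without the cell with the most Fabp5. Among the macrophage groups the unnamed resident or monocyte cluster (504 CPM) came next, followed by the resident (209 CPM), Dcstamp Cd226 Fn1 (136 CPM) and inflammatory (72.3 CPM) cells. After thinning, 42.5% (37.0 to 48.0) of monocyte-like cells had a UMI, against 2.94% (1.87 to 4.38) of fibroblast-like cells.

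Cd9 was a gene of the stroma and of dendritic cells more than of macrophages. It stood at 4857 CPM (4713 to 5004) in Schwann-like, 2337 CPM in lymphatic endothelial-like and 1338 CPM in keratinocyte-like cells, and at 801 CPM in fibroblast-like cells. Dermal dendritic-like cells had 514 CPM (496 to 532) and a UMI in 58.7% of thinned cells, compared with 71.9 CPM (67.9 to 76.1) and 7.51% in the macrophage class. Within that class the monocyte-like cells (144 CPM, 132 to 156) and the inflammatory macrophage-like cells (129 CPM, 104 to 158) had overlapping intervals over both libraries, but the former stood at 139 and 162 CPM in suffix 1 and 2 and the latter at 160 and 52.8 CPM. The resident macrophage-like cells were lowest (18.7 CPM).

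Lgals3 varied least between the phagocyte groups, from 1525 CPM (1436 to 1618) in inflammatory macrophage-like to 3982 CPM (3886 to 4079) in the unnamed Dcstamp or inflammatory cells. Monocyte-like cells stood at 3721 CPM (3662 to 3780), dermal dendritic-like cells at 2535 CPM and resident macrophage-like cells at 1903 CPM, with a UMI in 96.6%, 92.3% and 82.9% of thinned cells. Among non-phagocytes it stood at 1699 CPM (1478 to 1944) in mast-like and 1354 CPM in fibroblast-like cells and was lowest in lymphatic endothelial-like cells, at 83.8 CPM.

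When each macrophage group was set against the other macrophage cells over both libraries, the monocyte-like cells were the one of the 5 groups in which most members stood at least 2-fold higher. At least 2-fold higher were Spp1 (604 against 43.0 CPM, log2 ratio 3.81, 3.68 to 3.95), Gpnmb (158 against 20.2 CPM, 2.97, 2.76 to 3.19), Fabp5 (901 against 255 CPM, 1.82), Cd9 (144 against 47.9 CPM, 1.59), Trem2 (123 against 44.3 CPM, 1.47) and Plin2 (1453 against 570 CPM, 1.35). Lgals3 was higher by less than this (0.71), Lpl and Fabp4 were close to even (-0.08 and -0.13), with a sign that turned in 5 and in 7 of 9 alternatives (up to 0.55 and 0.84), and Apoe was lower (3015 against 6154 CPM, -1.03). With all members counted, this makes 6 of 10 higher, where 8.02% of 10986 genes were, and 1 of 10 lower, where 9.77% were. The median was 1.41 for the members and 0.17 for all genes. Since Spp1 and Gpnmb were known to lead these cells, their ratios are no finding of this comparison, and without them 4 of 8 were higher and 1 lower, with a median of 1.03. Some calls near 2-fold depended on the setting: Cd9 was at 0.86 in suffix 1 alone, clustered anew, Plin2 at 0.95 at a clustering resolution of 0.5, and Apoe was at least 2-fold lower in 3 of 9 alternatives. In the 47 monocyte-like cells of suffix 2, Spp1 (40.1 CPM) lay below the macrophage class of that library, so its ratio rested on suffix 1. There Gpnmb (40.1 against 35.1 CPM), Trem2 (65.6 against 58.6 CPM) and Plin2 (832 against 740 CPM) were close to the unnamed resident or monocyte cluster. Fabp5 (808 against 410 CPM) and Cd9 (162 against 57.3 CPM) were higher than in that cluster.

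**Figure D2:**
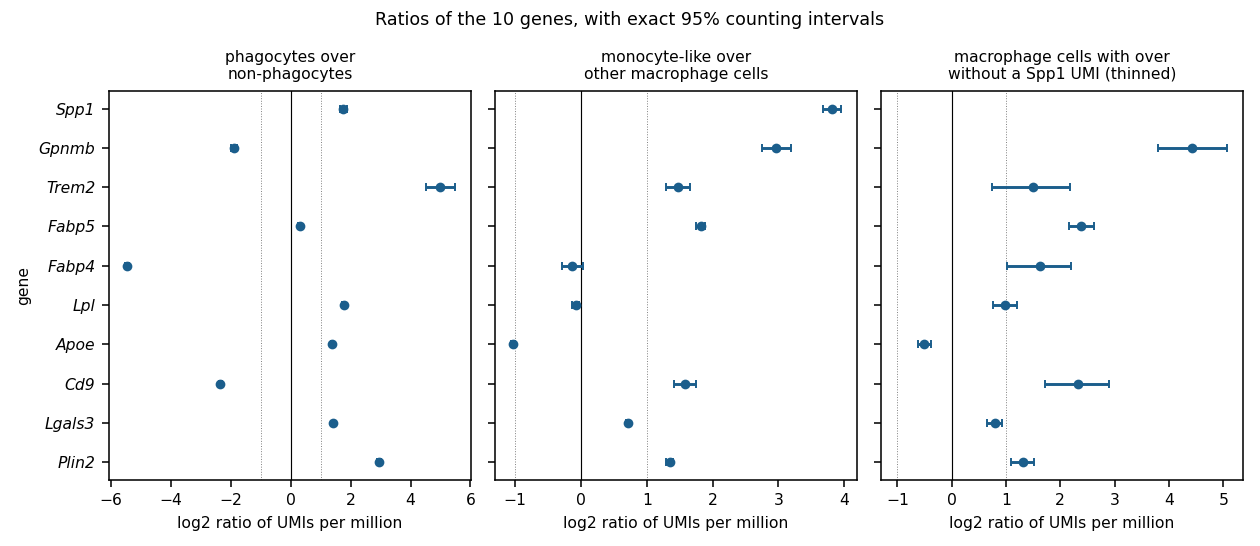
Log2 ratios of the levels (CPM) of the 10 genes (rows) with exact 95% counting intervals, for phagocytes over non-phagocytes, monocyte-like over other macrophage cells, and macrophage cells with over without a thinned Spp1 UMI. Dotted lines mark 2-fold. Trem2 led the first (4.97) and Spp1 the second (3.81), while Gpnmb changed side, from -1.89 in the first to 4.43 in the third.

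The resident macrophage-like cells and the Dcstamp Cd226 Fn1 macrophages each had most members at least 2-fold lower. In resident macrophage-like cells Apoe alone was at least 2-fold higher (log2 ratio 1.69), which is 1 of 10 where 8.4% of genes were, and 7 of 10 were lower, where 11.8% were, among them Gpnmb (-3.95), Spp1 (-3.87) and Lpl (-3.197). In Dcstamp Cd226 Fn1 macrophages 2 of 10 were higher, where 4.18% of genes were, namely Lpl (1.60, 1.55 to 1.64) and Fabp4 (1.18), of which the latter rested on the cell with adipocyte markers. There, 7 of 10 were lower, where 17.7% were, led by Spp1 (-4.70), Gpnmb (-2.91) and Apoe (-2.14). This count is for both libraries pooled. In suffix 2, Gpnmb stood at 46.2 CPM in these macrophages, the highest of the 5 groups. That level rested on 1 of 42 cells, which held 32 of the 35 Gpnmb UMIs of the group over both libraries. The turn of direction there thus rested on this cell, which also held 21 Trem2 UMIs. Trem2 (47.6 CPM) and Cd9 (73.6 CPM) lay between the levels of the other groups of suffix 2. In inflammatory macrophage-like cells Apoe alone was higher (1.28), 1 of 10 where 4.94% were, and 5 of 10 were lower, where 24.8% were, including Fabp5 (-2.58) and Gpnmb, which was at least 13.7-fold lower from a floor of 3 UMIs over the group. The unnamed resident or monocyte cluster had none of 10 past 2-fold in either direction, where 2.68% of genes were higher and 3.12% lower. Its largest ratio was that of Spp1 (-0.61), at 129 against 197 CPM in the other cells. Those other cells included the 2 monocyte-like cells that held 63.1% of the Spp1 UMIs of the class. In suffix 2 this cluster had the highest Spp1 of the 5 groups (139 CPM), so the direction turned there.

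The summed levels hide how unevenly some of these transcripts were spread over cells. Of the 3033 Spp1 UMIs in the macrophage class, 1 monocyte-like cell of suffix 1 held 1374 (45.3%), which was 5.35% of all UMIs of that cell. A further monocyte-like cell of suffix 1 held 540, and these 2 cells together held more than all the other cells of the class. The same 2 cells also had the most Gpnmb UMIs, 117 and 97, and each had UMIs of all 10 members. Over the class, 145 cells had any Spp1 UMI and 117 any Gpnmb UMI.

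The 10 cells with the most UMIs of a gene held 78.5% of Spp1, 57.2% of Fabp4 and 55.5% of Gpnmb, compared with 27.8% of Cd9, 21.2% of Fabp5 and 17.5% of Trem2. They held 9.82% of Lpl, 7.17% of Lgals3, 5.92% of Plin2 and 4.10% of Apoe. Thus Spp1 and Gpnmb were transcripts of few cells with many copies, and Apoe, Plin2 and Lgals3 were shared by most macrophage cells. The 10 cells highest in Spp1 had a median of 21008 UMIs, and 9 of them came from suffix 1.

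**Figure D3:**
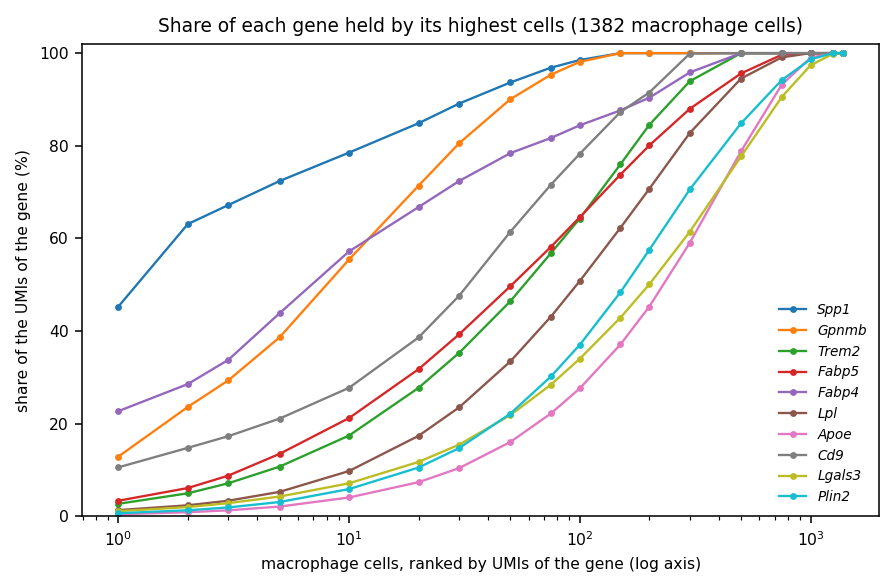
Cumulative share of the UMIs of each gene (%) over the 1382 macrophage cells, ranked by UMIs of that gene on a log axis, with 1 line per gene. The first cell holds 45.3% of Spp1 and 0.47% of Apoe.

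Co-detection was measured in 1332 macrophage cells thinned to 2000 UMIs, which left out 50 shallower cells. For each of 45 pairs of members, the cells with a UMI of both were divided by the number expected if the genes were independent, here called the lift. Because 2 pairs had fewer than 3 expected cells, 43 pairs were counted. The lift was at least 1.5 in 10 of 43 pairs, where 6.52% of 20915430 pairs of genes in these cells reached it, and at least 2 in 7. It was below 1 in 6 pairs, and the median was 1.13.

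Each of the 10 pairs contained Spp1, Gpnmb or Trem2. The lift cannot exceed all cells divided by the cells with the more often detected gene of a pair. Apoe had a UMI in 1082 and Lgals3 in 1183 of 1332 cells, so no pair with either gene could be among the 10. That the 10 pairs held rarely detected genes was thus partly set by detection. The part of detection in their number, compared with all pairs of genes, was not tested. Gpnmb was found with Fabp4 in 11 cells where 3.14 were expected (lift 3.51), with Trem2 in 12 where 3.51 were expected (3.42) and with Fabp5 in 29 where 11.1 were expected (2.61). Spp1 was found with Cd9 in 12 cells (2.58), with Fabp4 in 13 (2.54), with Trem2 in 14 (2.45), with Fabp5 in 37 (2.04) and with Lpl in 44 (1.61). Spp1 and Gpnmb themselves were in the same cell in 16 cases where 1.77 were expected, a lift of 9.05, but this pair fell under the minimum of 3, and 2 other random draws gave 5.62 and 5.73.

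A part of this joint detection followed the cell groups. With the expected number taken within each group and summed, the lift of Spp1 and Gpnmb was 3.82. That of Gpnmb and Fabp4 was 2.70 and that of Gpnmb and Trem2 2.28. Of 43 pairs, 6 remained at 1.5 or more, all among the 10 above, where 5.7% of the 20915430 pairs of genes reached it. Lpl and Apoe, which led different groups, were together in 408 cells where 478 were expected (0.85), and the lift within groups was 0.99. The lift exceeded 1 in both libraries for 27 of 43 pairs. Suffix 2 had 5 thinned Gpnmb-positive macrophage cells, and none of them had a UMI of Trem2 or Fabp4.

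**Figure D4:**
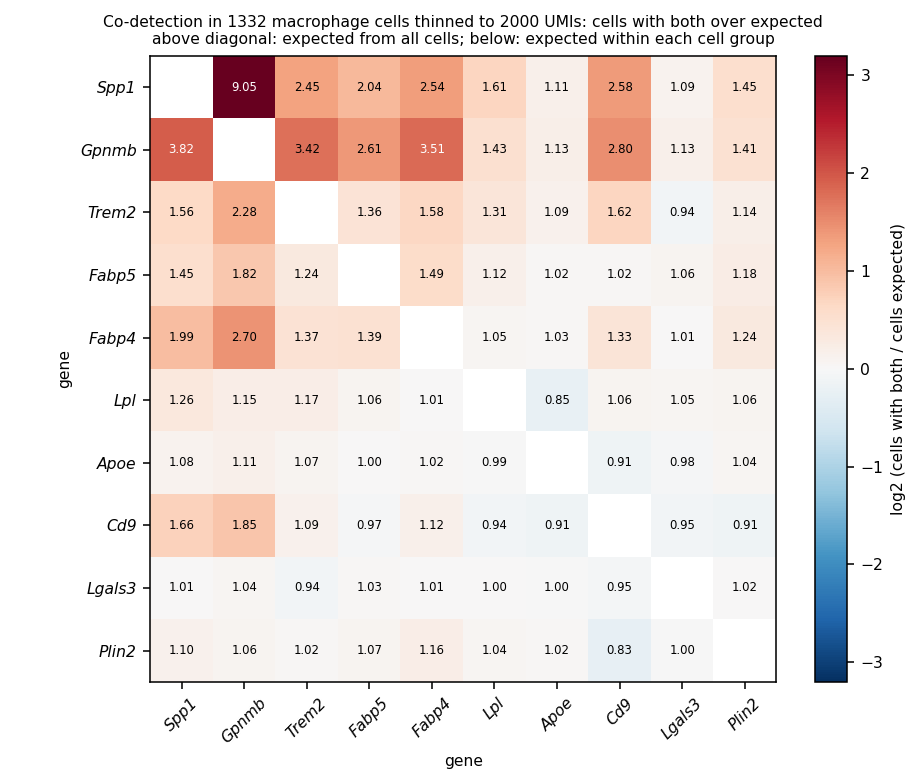
Ratio of macrophage cells with a UMI of both genes to the number expected, for each pair of the 10 genes in 1332 thinned cells; colour gives its log2. Above the diagonal the expectation is over all cells, below it within cell groups, and the ratios lie highest around Spp1 and Gpnmb (9.05 above, 3.82 below).

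Counting members per thinned cell gave a median of 3 of the 10, with a range up to 9. At least 5 members were found in 219 of 1332 cells (16.4%). These were 35.1% of the monocyte-like cells and 43.3% of the unnamed resident or monocyte cells, compared with 4.84% of resident, 4.92% of Dcstamp Cd226 Fn1 and 6.98% of inflammatory macrophage-like cells. At least 7 members were found in 33 cells, 22 of them monocyte-like, 10 unnamed and 1 resident macrophage-like.

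Without thinning, 43 of 1382 macrophage cells (3.11%, exact binomial interval 2.26 to 4.17) had UMIs of Spp1, Gpnmb and Trem2 together, 34 in suffix 1 (2.98%, 2.07 to 4.14) and 9 in suffix 2 (3.75%, 1.73 to 6.999). The monocyte-like group had 22 (6.47%, 4.10 to 9.63) and the unnamed resident or monocyte cluster 20 (14.1%, 8.82 to 20.9). Dcstamp Cd226 Fn1 macrophages had 1, none of 541 resident macrophage-like cells did, which allows up to 0.555%, and none of 88 inflammatory macrophage-like cells did (up to 3.41%). These cells were deep, with a median of 22714 UMIs against 10161 over the class, and the part of depth in their number was not tested.

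To describe the cells that carry Spp1, macrophage cells with a Spp1 UMI after thinning (62) were set against those without (1270). Such a UMI was found in 11.4% of monocyte-like and 13.5% of unnamed resident or monocyte cells. In each cluster of the other macrophage groups it was found in 2.33% or less, so most of the 62 cells lay in those 2 groups. The ratios here and for the gene lists below were taken over all groups together and thus also compare cell groups. Gpnmb stood at 364 CPM with and 16.9 CPM without a Spp1 UMI (log2 ratio 4.43, 3.79 to 5.06). Fabp5 stood at 1552 and 296 CPM (2.39, 2.15 to 2.62) and Cd9 at 251 and 50 CPM (2.33, 1.71 to 2.90). Fabp4 (1.63, 1.02 to 2.20), Trem2 (1.502, 0.75 to 2.18) and Plin2 (1.31, 1.10 to 1.51) were also at least 2-fold higher. Lpl (0.98) and Lgals3 (0.79) were higher by less, and Apoe was lower (-0.50, -0.62 to -0.38). That makes 6 of the 9 remaining members higher, where 10.3% of 7540 genes were, and 0 lower, where 15.5% were, with medians of 1.502 for the members and 0.04 for all genes. Without the 2 cells with the most Spp1, Gpnmb was at 3.79 and Cd9 at 1.12 (0.17 to 1.94), and 7 of 9 members were higher, Lpl (1.02) being the one added. Suffix 2 contributed 8 of the 62 cells, in which Gpnmb (5.21) and Fabp5 (2.96) were high but Fabp4 (-0.01) and Cd9 (-0.11) were not. Of these 8 cells, 2 had a UMI of Gpnmb, 6 of Fabp5, 1 of Fabp4 and 1 of Cd9.

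The 38 cells with a thinned Gpnmb UMI gave a like picture, with 7 of 9 members at least 2-fold higher than in the other 1294 cells, where 13.2% of genes were. They made up 8.00% of monocyte-like and 6.38% of unnamed resident or monocyte cells, but 0.893% or less of each other macrophage cluster. These ratios thus also compare cell groups. Spp1 led (2595 against 40.2 CPM, log2 ratio 6.01), followed by Fabp5 (3.09), Cd9 (2.75) and Trem2 (2.54). The 2 cells with the most Spp1 were among these 38 cells, with 162 of the 197 Spp1 UMIs. Without these 2 cells Spp1 stood at 487 CPM (3.60, 3.002 to 4.16), Cd9 at 1.12 (-0.12 to 2.15) on the log2 scale, and 7 of 9 members were higher. The 123 cells with a Trem2 UMI had 2 of 9 members higher, where 4.84% of genes were, namely Gpnmb (138 against 22.3 CPM, 2.63) and Fabp5 (1.201). Their Spp1 level was 130 CPM against 111 CPM without Trem2 (0.23, -0.35 to 0.76). This value rested on the same 2 cells, which had no thinned Trem2 UMI: without them the Trem2-negative level was 44.3 CPM, the ratio of Spp1 1.55 (0.94 to 2.14), and 3 of 9 members were higher.

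Between the libraries, whose ages are unknown, Spp1 and Gpnmb differed in the macrophage class by more than 2-fold. Spp1 stood at 221 CPM in suffix 1 and 44.9 CPM in suffix 2 (log2 ratio 2.30, 2.07 to 2.54), and Gpnmb at 62.1 and 27.6 CPM (1.17, 0.87 to 1.49). This is 2 of 10 members, where 6.43% of 10986 genes differed by 2-fold or more in either direction. Without the cell with the most UMIs of the gene in each library, the ratios were 1.82 and 1.501. The other 8 members lay between -0.31 (Lgals3) and 0.63 (Fabp4), with Trem2 at 0.58, Lpl at 0.58 and Plin2 at 0.55. Suffix 1 held 293 of the 340 monocyte-like cells and 1142 of the 1382 macrophage cells, and with 1 library of each kind these ratios have no replicate.

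**Figure D5:**
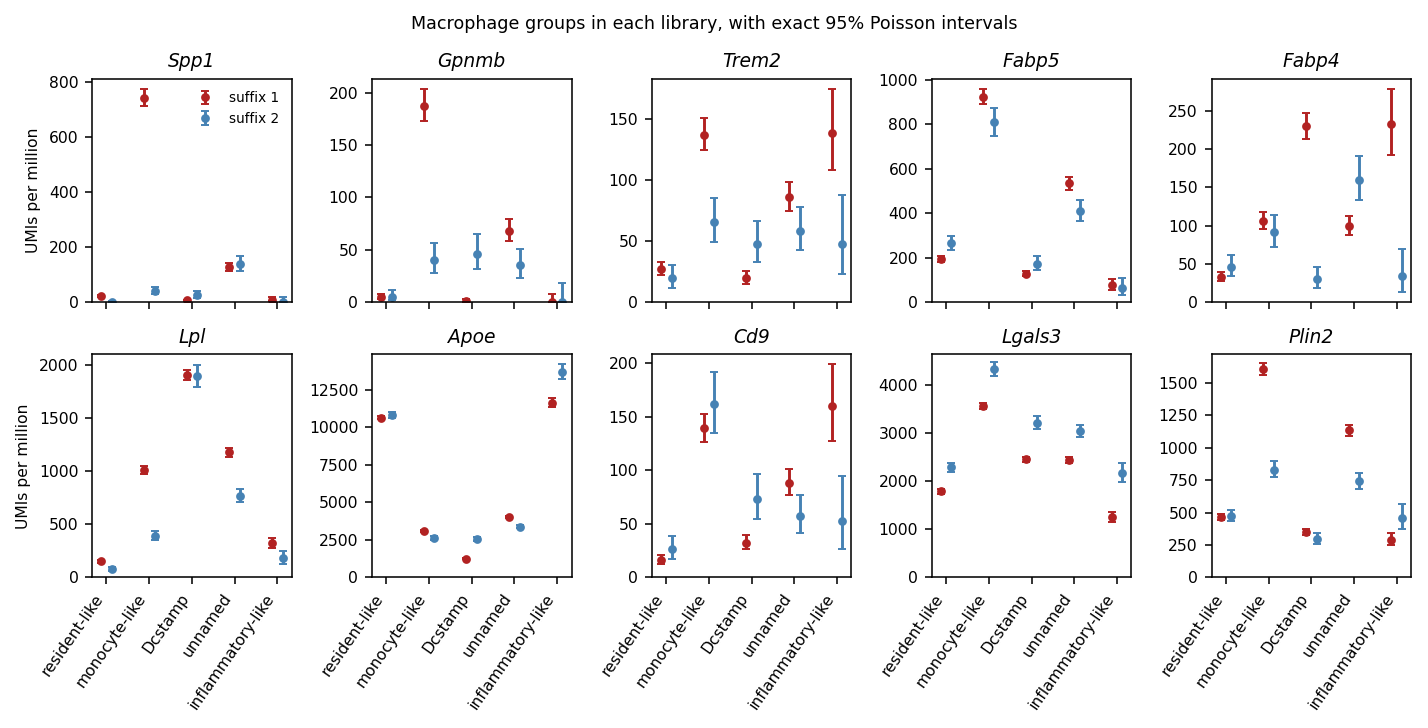
Level of each gene (UMIs per 1000000, CPM, linear axis) in the 5 macrophage groups, for suffix 1 (red) and suffix 2 (blue), with exact 95% Poisson intervals. Spp1 in monocyte-like cells was at 744 CPM in suffix 1 and 40.1 CPM in suffix 2, Gpnmb in Dcstamp Cd226 Fn1 macrophages at 0.95 and 46.2 CPM, and Lpl in the latter cells at 1909 and 1901 CPM. The 46.2 CPM of Gpnmb rested on 1 cell.

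Of 74 further genes in 8 lists of lipid handling and lysosomal function, 30 were at least 2-fold higher and 14 lower in phagocytes than in non-phagocytes. These counts and those of the single lists are read against the 13.3% of all genes that were higher and the 37.7% that were lower. All 5 genes of Trem2 signalling were higher, with log2 ratios of 5.04 for the adaptor Tyrobp, 4.24 for the adaptor Hcst, 3.80 for the kinase Syk and 3.66 for the phosphatase Inpp5d. Of 18 lysosomal and lipid-associated genes, 11 were higher, among them the elastase Mmp12 (5.08), the integrin Itgax (4.71), the proton pump subunit Atp6v0d2 (2.64) and the protease Ctsb (2.62), and 2 were lower, Cd63 (-1.20) and the collagen-degrading protease Ctsk (-5.69).

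Of 10 genes of cholesterol efflux and apolipoproteins, 5 were higher and 3 lower, with Apoc2 at 5.22, the sterol transporter Abcg1 at 3.05 and Apoc1 at -5.39. Of 9 lipid uptake genes, 3 were higher, the scavenger receptor Msr1 (5.07), Cd5l (4.04) and the lysosomal lipase Lipa (2.59), and 2 lower, Vldlr (-5.07) and Scarb1 (-2.75). Droplet genes had 2 of 12 higher, Soat1 (2.16) and Hilpda (1.99), and 3 lower, led by the monoglyceride lipase Mgll (-5.81). Fatty acid binding and oxidation genes had none of 9 higher and 2 lower, Fabp3 (-2.17) and Fabp7 (-1.90). Of 7 genes for receptors and partners of osteopontin and galectin-3, 3 were higher, Itga4 (4.13), Cd44 (1.82) and the secreted galectin-3 binding protein Lgals3bp (1.48), and 2 lower, Itgb3 (-2.33) and Itgb5 (-1.78). Of 4 MiT/TFE factors, Tfec was higher (4.29, 134 UMIs in phagocytes).

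In macrophage cells with a Spp1 UMI, 11 of the 62 genes of these lists with enough UMIs were at least 2-fold higher and 3 lower than in those without, which is read against the 10.3% and 15.5% of all genes above. The genes that were higher included Cd5l (105 against 7.09 CPM, log2 ratio 3.89, 2.74 to 5.001), whose 13 UMIs lay in 4.84% of the 62 cells, the sterol-sensing receptor Nr1h3 (105 against 22.0 CPM, 2.25), Atp6v0d2 (2.27, 0.24 to 3.89) and the lysosomal protease Ctsd (2409 against 704 CPM, 1.77, 1.59 to 1.95). Of the list of receptors and partners, Itgb5 (1.54), Lgals3bp (1.37) and Itgav (1.24) were higher, the last being a chain of integrins that bind osteopontin. The phospholipid transfer gene Pltp was lower (388 against 850 CPM, -1.13, -1.58 to -0.72). The Trem2 signalling genes had none of 5 higher, with Hcst at -1.13 (-4.20 to 0.76) on 2 UMIs, Tyrobp at 0.07 (-0.17 to 0.30) and Syk at -0.13.

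In monocyte-like against other macrophage cells, 15 of 70 genes of the lists were higher and 7 lower, next to 8.02% and 9.77% of all genes. Apoc2 (60.9 against 8.96 CPM, log2 ratio 2.76), Nr1h3 (1.83), Lgals3bp (1.82), Cd5l (1.62), Itgb5 (1.62), Abcg1 (1.32) and Ctsd (1.15) were among those higher, and Pltp was among those lower (-1.46). Also higher were G0s2 (7.73 against 0.08 CPM, 6.58) and Fabp3 (13.8 against 2.75 CPM, 2.33). G0s2 had 34 UMIs over all phagocytes, and 28 remained in macrophage cells after thinning, so most lay in shallow cells. Neutrophil markers were the second list of the monocyte-like cluster, with a mean log2 level over the median cluster of 2.49, against 4.31 for monocyte markers. The part of neutrophil RNA in the G0s2 level was not tested. Ch25h (-3.67), Apoc4 (-3.63) and Mgll (-2.74) were lower by more than Pltp. Cd5l, Nr1h3, Abcg1, Ctsd, Itgb5 and Lgals3bp were thus on the higher side in both descriptions. Because the descriptions share cells, part of this overlap was given beforehand, and no expected number was computed.

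Genes most like the 3 lead members were ranked by the correlation of log counts over 1102 thinned macrophage cells of suffix 1, among 8583 genes, with the value over 230 cells of suffix 2 beside it. The cells share a library and most counts are 0, so that these values describe the cells and carry no p. For Spp1 they were Gpnmb (Pearson r 0.46, and 0.38 in suffix 2), the acid phosphatase gene Acp5 (0.39, with no value in suffix 2), Cd9 (0.27, and 0.02), Ctsd (0.27, and 0.13) and Fabp5 (0.25, and 0.32). For Gpnmb they were Spp1, Fabp5 (0.34, and 0.16), Syngr1 (0.33, and -0.01), Ctsd (0.30, and 0.09) and Acp5 (0.29). For Trem2 they were Itga6 (0.29, and 0.10), Syngr1 (0.26, and 0.30), Gpnmb (0.21, and -0.04), Lrp1 (0.17, and -0.05) and Cd93 (0.16, and 0.17), so that Spp1 was not among the 5 (0.08, and 0.05).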

How the data were processed

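The authors sequenced 3' v3.1 droplet libraries and, per the labels, made the UMI counts with Cell Ranger 4.0.0 on mm10. They deposited whole-number counts without normalization, both libraries in 1 matrix. Any filtering of cells before deposit was not given in the sources used here. No sample column was left unmapped (0), but the barcode suffixes carry no age, so the planned age comparison was not made.

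Cells were filtered as stated, scaled to 10000 UMIs, logged and clustered (scanpy 1.11.5, numpy 2.4.6, scipy 1.17.1, leidenalg 0.10.2, igraph 0.11.9, Python 3.11.15) on 2000 variable genes without the members and list genes, with 30 components, 15 neighbours, resolution 1 and seed 1. Clusters were named from 24 marker lists, where a name needed 3 markers at 20 CPM and 2-fold over the median cluster and a lead of 1 over the next list (pseudocount 10). Scrublet called 0 of 2396 and 6 of 1401 cells, too few to count as a treatment of doublets, and none were removed. Members, marker lists, gene lists and rules were chosen with earlier results of these data known. The text names all members, up to 4 genes of a list by size of ratio, and the 5 genes most like each of 3 members. Ctsb, Cd63, Hilpda and Lipa, Lgals3bp in the compartment comparison, Tyrobp and Syk in Spp1-positive cells, and the genes of the lists in monocyte-like cells were named after their values were seen. Ratios have exact conditional 95% intervals, shares exact binomial ones, and a count of 0 is given as a limit of 3 counts. All intervals cover counting error only. Ratios were checked on simulated counts. Promoters came from RefSeq and positions from GENCODE.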

Additional observations from a re-analysis of the deposited data

How the results depend on the processing

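Settings were changed one at a time: the cell filter (1000 genes, 2000 UMIs and 5%, or 200 genes, 500 UMIs and 20%), the resolution (0.5 or 2), the genes used for clustering, each library alone, removal of the 5% of cells with the highest doublet scores, the weighting and the thinning. Chosen after seeing the data were leaving out the cell with the most UMIs of a gene, leaving out the deepest unnamed cluster, leaving out the 2 cells with the most Spp1, 2 other random draws, and all alternatives to the library comparison. The number of members higher in phagocytes was 6 to 7 over 11 alternatives (6 as reported), in monocyte-like cells 5 to 6 over 9 (6) and in Spp1-positive cells 4 to 7 over 16 (6), and 2 members differed between the libraries in all 8. Pairs with a lift of 1.5 or more numbered 1 to 13 (10), with 1 in suffix 2 alone, which holds fewer macrophage cells. In suffix 2 alone the ratios of Fabp4 and Cd9 in Spp1-positive cells reversed, to -1.79 (-7.11 to 0.72) and -0.59 (-5.93 to 1.96) on the log2 scale, and the cause was not tested. The ratio of Spp1 in phagocytes on the log2 scale ranged from 0.04 (suffix 2 alone) to 2.84 (stricter filter), and that of Fabp5 from -0.29 to 1.90. Apoe in monocyte-like cells ranged from -1.33 to -0.45. The lift of Spp1 and Gpnmb ranged from 3.94 to 12.4. Of the single-gene values, 318 stayed within the counting interval of the reported value and 194 moved beyond it, besides the 2 that reversed. A reversal was counted for ratios of at least 2-fold as reported. Of ratios under 2-fold, 15 more values changed sign, among Fabp5 in phagocytes, Fabp4 and Lpl in monocyte-like cells and Fabp4 between the libraries. The stricter filter and suffix 2 alone, clustered anew, gave no monocyte-like group, so the monocyte-like ratios have no value there. In the clustering of both libraries, the 47 monocyte-like cells of suffix 2 had Spp1 at 40.1 CPM, below the macrophage class of that library. No paired analysis was possible because each age has 1 library and no suffix is tied to an age. Most thinned macrophage cells had no UMI of Spp1, Gpnmb, Trem2, Fabp4, Cd9, Fabp5 or Lpl, and the part of low depth in this was not tested.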
